A study of Mus musculus with 6 samples.

Results

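Heme breakdown and iron export were followed through 8 mouse genes, chosen by name for their place in the path from heme to stored or exported iron: Slc48a1, Hmox1, Hmox2, Blvra, Blvrb, Fth1, Ftl1 and Slc40a1. All non-control probes of these genes were taken, 11 of the 55681 probes on each array, and all 8 genes were well above background on every array. They are 8 of the 15736 genes that could be tested. The cells were macrophages grown from the bone marrow of Bach1 knockout (KO) mice and of wild-type (WT) mice, both C57BL/6 and 11 weeks old, and were kept for 5 days with the growth factor GM-CSF at 10 ng/mL, in a culture medium that held 10% heat-treated fetal bovine serum, penicillin and streptomycin under 5% CO2 at 37 °C, with no further stimulus named. There were 3 mice per genotype, and the total RNA of each was read on its own one-colour Agilent array. KO 947 and 948 were male and KO 949 female, and WT 1 and 2 were male and WT 3 female. The labels do not say how Bach1 was disrupted. Levels are log2 signals after division by the array's 75th percentile, and differences are KO minus WT on the log2 scale. Probes differ in brightness for reasons other than transcript number, so levels are compared between genotypes only and never between genes.

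Macrophages take up the heme of aged red cells and recycle its iron. Slc48a1 (HRG1) carries heme out of the phagolysosome, and the heme oxygenases Hmox1 and Hmox2 split it into biliverdin, carbon monoxide and iron. The reductase Blvra turns this biliverdin into bilirubin, and Blvrb is another biliverdin reductase. The freed iron is stored in a shell of ferritin heavy (Fth1) and light (Ftl1) chains or leaves the cell through ferroportin (Slc40a1), the exporter of cellular iron in mammals. Bach1 is a repressor that pairs with small Maf proteins on antioxidant response elements, and heme binding removes it from DNA. Hmox1 is its best known target.

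RefSeq promoter sequence (GRCm38.p6) was at hand for 5 of the 8 genes, Hmox2, Blvra, Blvrb, Fth1 and Ftl1, with 9 annotated starts between them. In the 250 bases before each start, both strands were searched for the core of the antioxidant response element, TGACNNNGC and for the E-box CACGTG, and no match overlapped another. Only 1 of the 9 windows held any of them, that of Blvra, with 1 match to TGACNNNGC on the minus strand, which begins 49 bases before the start and reads GCTCGGTCA on the plus strand. Over all 32851 starts in the table, 10.2% of windows held TGACNNNGC and 6.02% held CACGTG. An extended Maf recognition element was also searched and was in none of the 9 windows, beside 1.1% of all windows. The Blvra window and the windows of the ferritin pair are shown, the first because it holds the match and the others because ferritin genes are textbook targets of this element. They are written 5′ to 3′ on the strand of the gene, with the match in capitals.

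Blvra, chr2:127070407-127070656, plus strand: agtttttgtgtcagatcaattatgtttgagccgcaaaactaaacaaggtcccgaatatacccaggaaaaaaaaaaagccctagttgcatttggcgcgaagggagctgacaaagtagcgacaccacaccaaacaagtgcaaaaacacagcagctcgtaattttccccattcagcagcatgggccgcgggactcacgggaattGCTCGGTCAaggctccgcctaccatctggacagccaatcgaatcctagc
Fth1, the second of 2 starts, chr19:9982396-9982645, plus strand: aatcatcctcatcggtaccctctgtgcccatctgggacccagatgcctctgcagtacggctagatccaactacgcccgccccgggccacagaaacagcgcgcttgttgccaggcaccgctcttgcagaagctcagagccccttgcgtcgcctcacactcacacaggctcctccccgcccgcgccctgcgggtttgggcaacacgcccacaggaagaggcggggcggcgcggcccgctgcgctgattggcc
Ftl1, chr7:45459887-45460136, minus strand: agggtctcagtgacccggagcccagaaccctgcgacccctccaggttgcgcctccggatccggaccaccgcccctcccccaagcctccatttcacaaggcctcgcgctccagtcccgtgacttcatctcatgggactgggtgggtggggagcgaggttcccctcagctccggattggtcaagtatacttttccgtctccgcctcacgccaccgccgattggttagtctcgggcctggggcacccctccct

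The ferritin windows hold neither motif, which says only that these letters are not in these stretches. A match is a description of sequence and not a binding site. Elements farther from the start were not searched.

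Before the single genes, the cultures and arrays are described once. The share of non-control spots well above background was 62.5% to 65.1% on the KO arrays and 70.3% to 73.2% on the WT arrays, and no spot was saturated. KO 947 and all 3 WT arrays lay on 1 slide, and KO 948 and 949 lay on another, so that slide and genotype overlap in part. All 14 measured macrophage markers, among them the colony-stimulating factor receptor Csf1r and the F4/80 gene Adgre1, were well above background on every array, and so were all 17 dendritic cell markers. The single Bach1 probe read 1.45, 2.00 and 2.23 in KO 947, 948 and 949 and 2.21, 2.48 and 2.59 in WT 1, 2 and 3, so that the genotypes overlapped (-0.54 ± 0.24, SE, limma adjusted p = 0.262). Since the labels do not say how the gene was disrupted, the probe cannot check the genotype labels.

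Of the 8 genes, Hmox1 and Slc40a1 rose in KO macrophages, none fell, and 6 did not pass the test. Genes were tested with limma over all 15736 genes, where 3.41% were called in either direction, 1.14% upward and 2.27% downward, at a Benjamini-Hochberg adjusted p under 0.05. In Hmox1 and Slc40a1 every KO array lay above every WT array, and in the other 6 genes the genotypes overlapped. Of all genes tested, 26.9% had groups that did not overlap, 13.4% with KO higher and 13.5% with KO lower. The median difference of the 8 genes was 0.10, beside -0.01 for all genes tested. The RNA was taken from whole cultures, in which fewer cells of a type and less RNA per cell cannot be told apart.

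**Figure D1:**
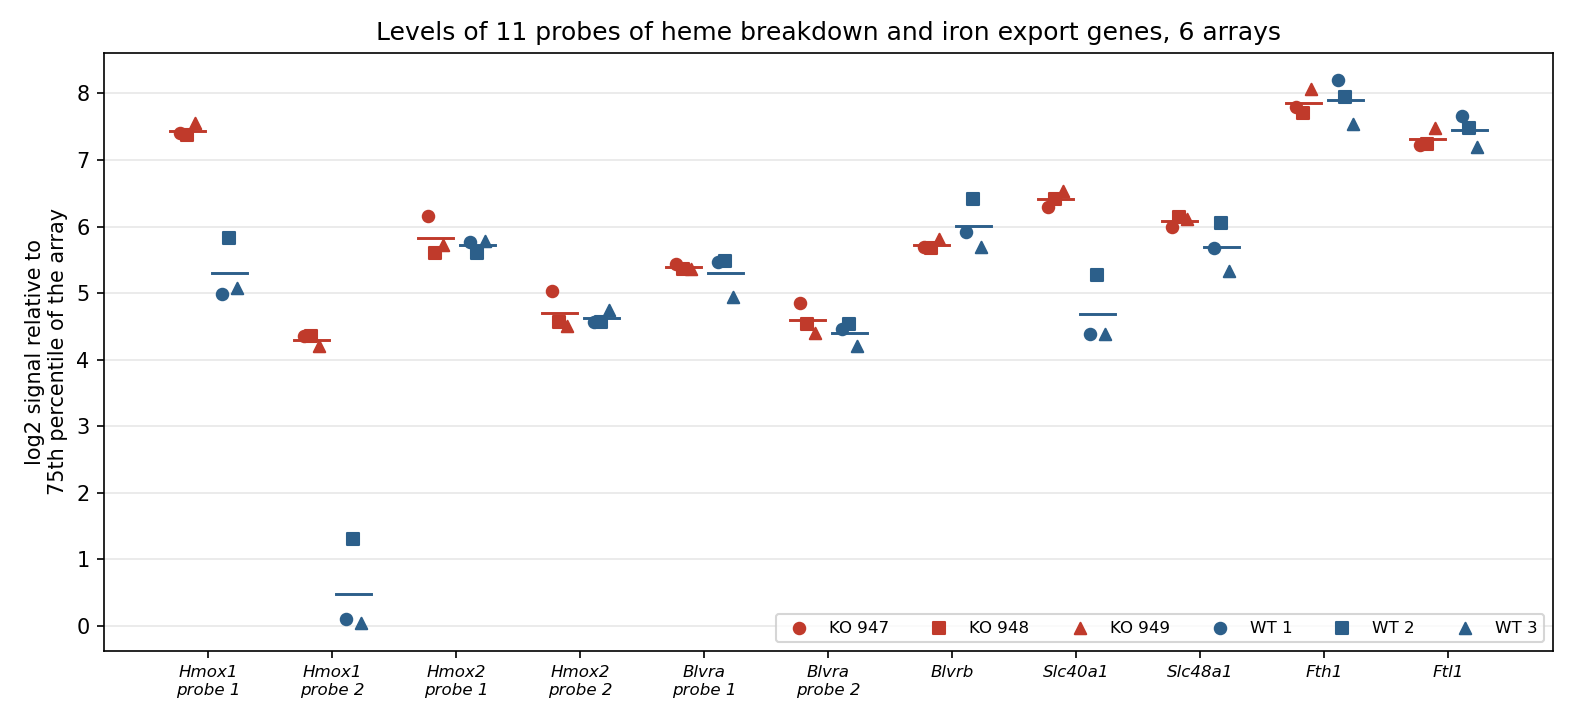
Log2 level of each array after division by its 75th percentile (vertical axis) for the 11 probes, with 3 KO arrays (red, left) and 3 WT arrays (blue, right) per probe. Horizontal bars are group means and each symbol is 1 mouse. Both Hmox1 probes and the Slc40a1 probe have all KO points above all WT points.

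Entry of heme into the cytosol gave no call. The single Slc48a1 probe read 5.99, 6.15 and 6.12 in KO 947, 948 and 949 and 5.68, 6.06 and 5.34 in WT 1, 2 and 3. WT 2 lay above KO 947, so the genotypes overlapped, although the 3 KO arrays spanned 0.15 and the 3 WT arrays 0.73. The difference was 0.39 ± 0.21 (SE, limma adjusted p = 0.344, n = 3 per genotype), with a 95% interval of -0.10 to 0.89, which reaches from a slight decrease to a 1.85-fold increase. A fixed slide term in the fit gave 0.30.

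Hmox1, the inducible heme oxygenase, was measured by 2 probes for the same RefSeq transcript. The first (A_51_P263965), the brighter one and the one used for the gene, read 7.40, 7.37 and 7.55 in KO 947, 948 and 949 and 4.99, 5.83 and 5.08 in WT 1, 2 and 3. The second (A_55_P2029687) read 4.36, 4.35 and 4.20 in the KO arrays and 0.10, 1.31 and 0.04 in the WT arrays, in the same order of mice. On both probes the KO mice lay close together, WT 1 and 3 lay together at the bottom, and WT 2 stood between. The first probe averaged 7.44 ± 0.10 in KO and 5.30 ± 0.46 in WT (SD, n = 3 each), a 4.40-fold rise with a 95% interval of 2.94-fold to 6.60-fold (log2 2.14 ± 0.25, SE, limma adjusted p = 0.0114). The call ended with a fixed slide term (2.10, adjusted p = 0.0739) and held with a random one (2.12, adjusted p = 0.0224). In the fit of all 37830 probes that passed the filter on dim probes, 1.04% were called in either direction and 0.256% upward. Both Hmox1 probes passed there, with limma adjusted p = 0.0231 for the first and 0.0148 for the second. Of 19 other settings of that fit the first probe passed in 11 and the second in 14. Of the 6 among them that leave out 1 mouse, the first passed in 2 and the second in 4.

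The 2 Hmox1 probes differed in the size of the rise. The second probe averaged 4.30 ± 0.09 in KO and 0.48 ± 0.72 in WT (SD), a log2 difference of 3.82 ± 0.35 (SE) or 14.2-fold. The rise of the first probe was smaller by 1.68 on the log2 scale, and the difference between the probes, taken on each array, did not overlap between genotypes. Of all probes tested, 9.62% had every KO array above every WT array, as both Hmox1 probes did. The second probe was the dimmer one. Its processed signal was 4.71% to 5.97% of the saturation value of the scanner on the KO arrays and 0.245% to 0.701% on the WT arrays, whereas the first probe stood at 47.2% to 48.3% on the KO arrays and 7.24% to 16.1% on the WT arrays. The part of signal strength in this difference was not tested, and the sequences of the probes were not used here. The authors' deposited table, a filtered list of probes, holds both and gives differences of 2.16 and 3.83 for the first and second probe.

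Hmox2, the constitutive heme oxygenase, did not pass on either of its probes. Its brighter probe read 6.16, 5.60 and 5.72 in KO 947, 948 and 949 and 5.77, 5.61 and 5.79 in WT 1, 2 and 3, and the other read 5.04, 4.57 and 4.50 in the KO arrays and 4.57, 4.56 and 4.74 in the WT arrays. On both probes KO 947 stood highest. The gene differed by 0.10 ± 0.19 (SE, limma adjusted p = 0.795), with a 95% interval of -0.34 to 0.55, and the 2 probes gave 0.10 and 0.08. Fitted with a fixed slide term, which leaves the genotype contrast to KO 947, the difference was 0.44 (adjusted p = 0.288), and without KO 947 it was -0.06.

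The oxygenases were also set against each other on the same array, where any scaling of the array cancels. The log2 distance of Hmox1 over Hmox2, counted from its WT mean, ran from 1.66 to 2.25 in KO and from -0.36 to 0.64 in WT, so that the pair shifted by 2.03 and the genotypes did not overlap. The exact permutation test over the 6 arrays gave its smallest possible two-sided value, p = 0.10 (0.12 adjusted over the 6 pairs compared), and 3 against 3 arrays cannot go lower.

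The biliverdin reductases gave no call. Blvra, the reductase of adult tissue, read 5.44, 5.36 and 5.37 in KO 947, 948 and 949 and 5.47, 5.48 and 4.94 in WT 1, 2 and 3 on its brighter probe, a difference of 0.09 ± 0.19 (SE, limma adjusted p = 0.818, 95% interval -0.36 to 0.54). Its other probe read 4.85, 4.54 and 4.40 in the KO arrays and 4.46, 4.54 and 4.21 in the WT arrays, a difference of 0.20 ± 0.19. WT 3 was the lowest WT array on both Blvra probes, and without it the gene's difference was -0.09. Blvrb, which also acts as a flavin reductase, read 5.69, 5.68 and 5.81 in the KO arrays and 5.92, 6.41 and 5.70 in the WT arrays. Its difference was -0.29 ± 0.21 (limma adjusted p = 0.487, 95% interval -0.78 to 0.21).

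Taken within an array, Blvrb relative to Blvra was lower in every KO array. Counted from the WT mean, the log2 distance of Blvrb over Blvra ran from -0.47 to -0.28 in KO and from -0.26 to 0.22 in WT, a shift of -0.38. The nearest KO and WT arrays almost touched, and the exact permutation p was again 0.10 (0.12 adjusted over the 6 pairs), the smallest that the design allows.

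Iron storage showed no call. Fth1, whose product oxidises iron for storage, read 7.80, 7.70 and 8.06 in KO 947, 948 and 949 and 8.20, 7.95 and 7.54 in WT 1, 2 and 3, with the genotypes interleaved. The difference was -0.04 ± 0.21 (SE, limma adjusted p = 0.932), and the 95% interval of the fold ran from 0.686 to 1.38. Ftl1, the chain that favours mineral formation, read 7.23, 7.24 and 7.48 in the KO arrays and 7.66, 7.48 and 7.20 in the WT arrays, a difference of -0.13 ± 0.17 (adjusted p = 0.718, fold interval 0.685 to 1.22). These intervals leave room for moderate changes either way at the mRNA level, and ferritin protein was not measured.

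The 2 ferritin chains moved together from array to array. KO 949 was the highest KO array and WT 3 the lowest WT array for both. The scaling ran with this order: the 75th percentile was lowest among KO arrays in KO 949 (1992) and highest among WT arrays in WT 3 (2523). Before scaling KO 949 was still the highest KO array for both. WT 3 was then the lowest WT array for Fth1 (471000) but not for Ftl1 (372000, against 360000 in WT 1). The part of the scaling in the shared order was not tested. The log2 distance of Fth1 over Ftl1, counted from its WT mean, ran from 0.01 to 0.14 in KO and from -0.11 to 0.09 in WT, and the shift of 0.09 did not separate the genotypes (exact permutation p = 0.30). The processed signals of Fth1 were 60.9% to 68.5% of the saturation value on the KO arrays and 60.5% to 69.9% on the WT arrays, and those of Ftl1 41.9% to 45.6% on the KO arrays and 46.2% to 50.5% on the WT arrays, with no spot marked as saturated. By mean level, Fth1 ranked 2 from the brightest of all non-control probes in KO and in WT. On KO 949 (533000) and WT 2 (545000) its signal matched, after rounding, the highest of the array (533399 and 544587). Whether a rise could still be read at this brightness was not tested. RefSeq lists pseudogenes of both chains, and whether the probes also bind their transcripts was not tested. The signs of both differences depend on the scaling: with scaling to the array median, which lifts the median of all genes to 0.21, Fth1 was at 0.17 and Ftl1 at 0.09.

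The mRNA of the iron exporter rose, while ferroportin protein and iron itself were not measured. Slc40a1, which encodes ferroportin, read 6.30, 6.42 and 6.53 in KO 947, 948 and 949 and 4.38, 5.28 and 4.38 in WT 1, 2 and 3. As for Hmox1, the KO arrays lay close together, WT 1 and 3 coincided, and WT 2 was the highest WT array, still below every KO array. It averaged 6.41 ± 0.11 in KO and 4.68 ± 0.52 in WT (SD, n = 3 each), a 3.33-fold rise with a 95% interval of 2.14-fold to 5.18-fold (log2 1.74 ± 0.27, SE, limma adjusted p = 0.0280). Slide and genotype overlap in part, and this call ended with a fixed slide term (1.62, adjusted p = 0.139) and with a random one (1.70, adjusted p = 0.0524). In the fit of all probes its limma adjusted p was 0.0480. Of 19 other settings of that fit the probe passed in 6, and in 0 of the 6 that leave out 1 mouse. The authors' deposited table gives a difference of 1.75.

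**Figure D2:**
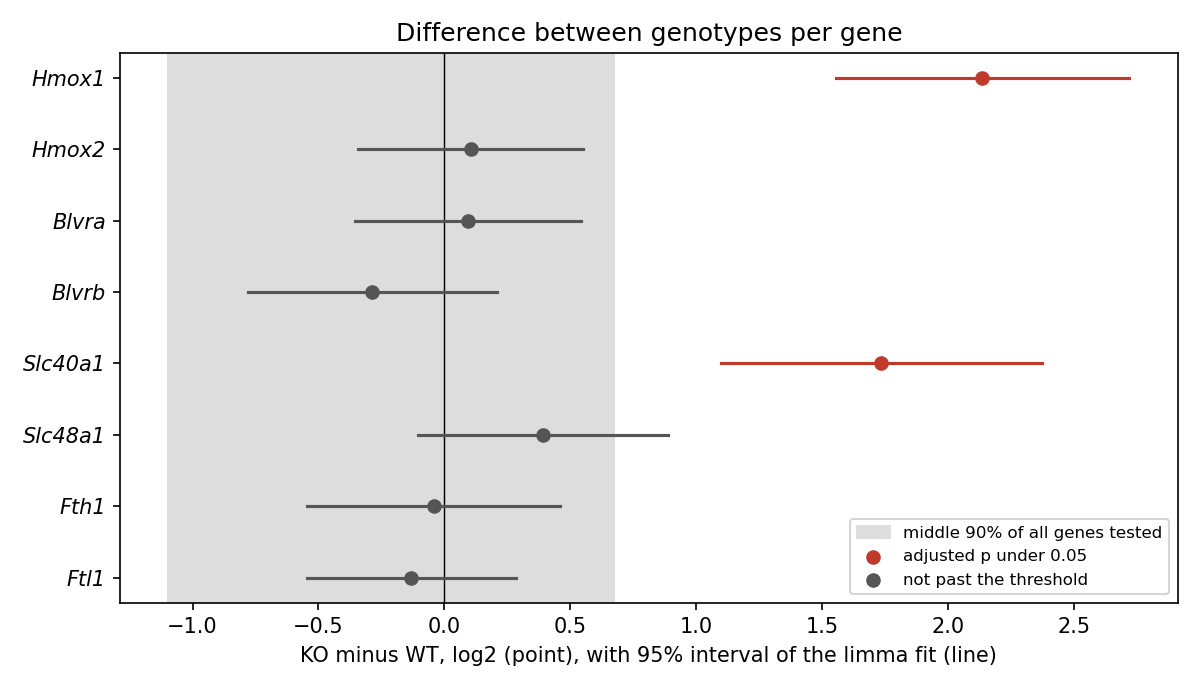
KO minus WT on the log2 scale for each of the 8 genes (points) with the 95% interval of the limma fit (lines), red where the adjusted p was under 0.05. The grey band holds the middle 90% of all 15736 genes tested, from -1.10 to 0.67. Hmox1 and Slc40a1 lie wholly to its right.

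Hmox1 and Slc40a1 followed each other closely over the 6 mice. The log2 distance of Hmox1 over Slc40a1, counted from its WT mean, ran from 0.33 to 0.48 in KO and from -0.07 to 0.08 in WT, with an SD of 0.08 in each genotype, against WT SDs of 0.46 and 0.52 for the genes themselves. Hmox1 thus rose by 0.40 more than Slc40a1 on these probes, with groups that did not overlap (exact permutation p = 0.10, 0.12 adjusted over the 6 pairs). The dimmer Hmox1 probe rose by 3.82, against 2.14 for the brighter one used here, so the size of this gap depends on the probe. Slc40a1 over Fth1 shifted by 1.78, from 1.68 to 1.93 in KO and from -0.60 to 0.55 in WT counted from the WT mean, and Slc40a1 over Slc48a1 shifted by 1.34, from 1.28 to 1.42 in KO and from -0.29 to 0.23 in WT. Both of these had the same smallest exact permutation p of 0.10.

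**Figure D3:**
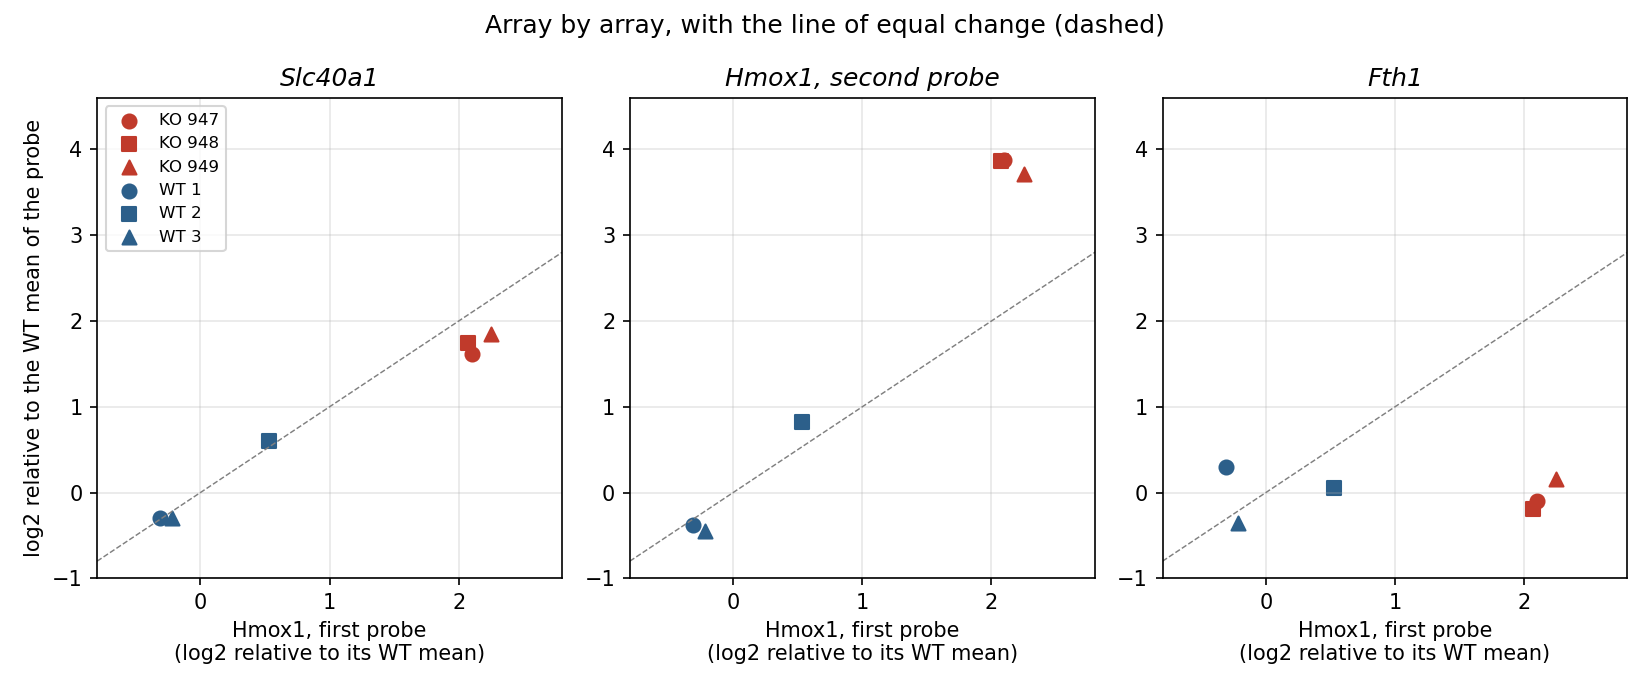
Each point is 1 array (red KO, blue WT). The horizontal axis gives the first Hmox1 probe and the vertical axis Slc40a1, the second Hmox1 probe or Fth1, each as log2 relative to the WT mean of its own probe, and the dashed line marks equal change. Slc40a1 follows Hmox1 close to the line, the second Hmox1 probe stands above it in KO, and Fth1 stays near its WT mean on all arrays.

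The WT mice differed more among themselves than the KO mice for several of these genes. The SD over the WT arrays was 4.69 and 8.14 times that over the KO arrays for the first and second Hmox1 probe, 4.53 times for Slc40a1, 4.47 times for Slc48a1 and 4.98 times for Blvrb. In all of these genes WT 2 was the highest WT array. Blvra gave 6.95 times on its brighter probe, through WT 3, but 0.738 times on the other. Hmox2 gave 0.322 and 0.344 times on its 2 probes, through KO 947. Over all genes tested the median SD was 0.24 in KO and 0.22 in WT. These spreads are given as a description, with no test, since each rests on 3 mice.

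The pattern of Hmox1 was compared with those of 15693 other genes, taking each gene relative to its WT mean and measuring the root-mean-square distance over the 6 arrays. Slc40a1 stood nearer to Hmox1 (0.29) than any of them. The next were Klra2 (0.35), a Ly49 family receptor gene, the fatty acid binding protein gene Fabp7 (0.37), Atf7ip2 (0.37, with 1 of 3 WT arrays well above background), Zcchc24 (0.38) and the scavenger receptor gene Marco (0.39). For Slc40a1 the nearest were the endothelin receptor gene Ednrb (0.17), Fabp7 (0.20), the lipid phosphatase gene Plpp3 (0.23), Gask1b (0.26) and Dnmt3l (0.26), and Hmox1 stood in place 9 of all genes compared. The nearest genes differed by 1.43 to 2.44 on the log2 scale, and Plpp3, at 1.48, missed the limma threshold (adjusted p = 0.0587). With 6 arrays in 2 groups, a short distance says mainly that 2 genes have differences of like size.

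Among 33 other measured genes of heme and iron handling, 2 rose, 2 fell and 29 did not pass, where 1.14% of all genes tested were called upward and 2.27% downward. The median was 0.07, beside -0.01 for all genes. Slc39a8, the metal importer ZIP8, read -1.30, -1.39 and -0.64 in KO 947, 948 and 949 and -2.89, -2.57 and -2.81 in WT 1, 2 and 3, a rise of 1.65 ± 0.23 (SE, limma adjusted p = 0.0210). Slc46a1, a folate transporter that was also described as a heme carrier, read 0.45, 0.40 and 0.67 in the KO arrays and -0.40, -0.66 and -0.41 in the WT arrays, a rise of 0.99 ± 0.16 (adjusted p = 0.0290). Both transporters had all KO arrays above all WT arrays. Heph, a ferroxidase that works beside ferroportin in the gut, read -4.33, -4.85 and -4.96 in the KO arrays and -3.23, -2.88 and -2.86 in the WT arrays, a difference of -1.72 ± 0.22 (adjusted p = 0.0153). Tfr2, a transferrin receptor of liver and erythroid cells, read -3.72, -3.81 and -4.46 in the KO arrays and -2.40, -2.74 and -2.68 in the WT arrays, a difference of -1.39 ± 0.24 (adjusted p = 0.0358). Heph and Tfr2 had all KO arrays below all WT arrays, but their size depended on the background correction, with -0.92 for Heph and -0.69 for Tfr2 under normexp. Heph was at -1.15 as the mean of its probes. A fixed slide term in the fit ended these calls, at 1.46 for Slc39a8 (adjusted p = 0.119), 0.94 for Slc46a1 (adjusted p = 0.123), -1.33 for Heph (adjusted p = 0.0702) and -1.11 for Tfr2 (adjusted p = 0.169). With a random one the calls of Slc39a8 (1.58, limma adjusted p = 0.0401) and Heph (-1.59, adjusted p = 0.0276) held. Those of Slc46a1 (0.98, adjusted p = 0.0503) and Tfr2 (-1.29, adjusted p = 0.0649) ended.

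**Figure D4:**
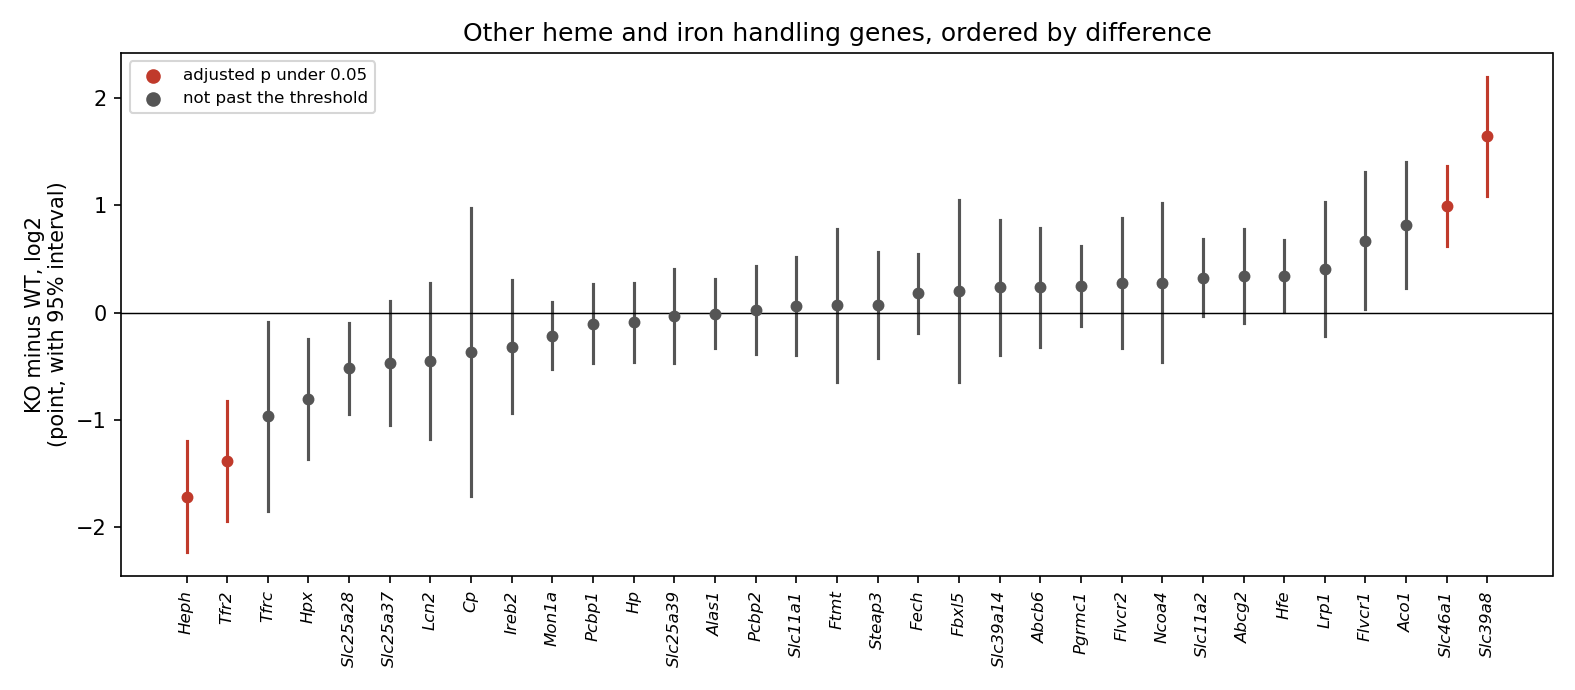
KO minus WT on the log2 scale (points) with 95% intervals of the limma fit (lines) for the 33 other measured heme and iron genes, ordered by difference. The 4 genes in red passed at an adjusted p under 0.05, with Heph and Tfr2 lower and Slc46a1 and Slc39a8 higher in KO.

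Of 17 measured factors tied to the control of Hmox1 or to Bach1, 1 rose and none fell, where 1.14% of all genes tested were called upward and 2.27% downward. The median was 0.37, beside -0.01 for all genes. Spic, a transcription factor that iron-recycling macrophages of the mouse spleen need and that heme induces through loss of Bach1, read 3.00, 3.02 and 3.36 in KO 947, 948 and 949 and -0.71, 0.79 and -0.33 in WT 1, 2 and 3. WT 2 was again the highest WT array, and the KO arrays stood far above it (3.21 ± 0.38, SE, limma adjusted p = 0.0122). The Spic call ended with a fixed slide term (3.09, adjusted p = 0.0848) and held with a random one (3.17, adjusted p = 0.0254). The second largest difference was that of Nr1d2, which encodes the heme-binding nuclear receptor Rev-erb beta, at 0.97 ± 0.20 (adjusted p = 0.0520). The other 15 lay between -0.82 for Nfe2l1 and 0.73 for Nr1d1.

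Markers of other cell types differed between the cultures beside these genes. Summed over the measured markers of a list, as signal in units of the 75th percentile of the array, macrophage markers ranged from 684 to 736 in KO and from 573 to 678 in WT, with 2 of 14 higher (Marco and Mrc1) and 1 lower (Vcam1) past the test. In direction alone 7 were higher and 7 lower, with a median of -0.03, and the mean log2 level ran from 4.08 to 4.38 in KO and from 4.21 to 4.40 in WT. The sum is weighted to bright probes such as that of Marco, which averaged 7.62 in KO and 5.72 in WT. Dendritic cell markers ranged from 481 to 533 in KO and from 655 to 807 in WT, with 7 of 17 lower past the test, beside 2.27% of all genes. All 17 were lower in direction and 13 did not overlap, beside 13.5% of all genes that did not overlap with KO lower. Stromal markers ranged from 0.442 to 1.47 in KO and from 5.51 to 25.1 in WT, with 3 of 8 lower past the test and Lum not well above background on any array. All 8 were lower in direction, with a median of -3.21, and 7 did not overlap. Among the 8, Cxcl12 was well above background on 3 WT and 0 KO arrays and passed the filter through WT alone. It is among the 8 lower and the 7 without overlap, and its place there is no support for a fall. Granulocyte markers ranged from 261 to 298 in KO and from 343 to 403 in WT, with 1 of 15 lower past the test. In direction 12 were lower and 3 higher, with a median of -0.63, and without overlap 6 were lower and 1 higher. Cxcr2, among those lower without overlap, was well above background on 3 WT arrays and 1 KO array. Markers of eosinophils, mast cells and basophils ranged from 57.2 to 81.0 in KO and from 76.6 to 107.5 in WT, with 3 of 11 lower past the test and Ms4a2 not above background. Of those 3, Mcpt8 was well above background on 3 WT and 0 KO arrays. It passed the filter through WT alone, so its call and its place in the counts that follow are no support for a fall. In direction 9 of the 11 were lower and 2 higher, with a median of -2.68, and 5 were lower without overlap. Erythroid markers ranged from 97.4 to 105 in KO and from 85.0 to 97.2 in WT, with none of 11 past the limma test or under 0.05 unadjusted, and Kel and Epb42 not above background on any array. Most of that sum came from Hemgn, at 6.58 in KO and 6.44 in WT, whereas 8 of the 11 were lower in KO, 3 of them without overlap, with a median of -0.41. The part of these shifts in the values of the heme and iron genes was not tested.

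The calls of Hmox1 and Slc40a1 depended on some of the other fits. On the shared slide alone, with KO 947 as the only KO array, Hmox1 differed by 2.10 (limma adjusted p = 0.112) and Slc40a1 by 1.62 (adjusted p = 0.205). The dimmer Hmox1 probe differed by 3.88 with a fixed slide term (adjusted p = 0.0638 over all probes). Of the 6 fits that leave out 1 mouse, Hmox1 passed in 5 and was lost without WT 1 (adjusted p = 0.0518), and the Slc40a1 call was lost when KO 948 (0.0932), KO 949 (0.0823), WT 1 (0.102) or WT 3 (0.0731) was left out (adjusted p in parentheses). Leaving out WT 2, the WT mouse nearest to the KO mice, gave the largest differences among these fits, 2.40 for Hmox1 and 2.04 for Slc40a1.

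**Figure D5:**
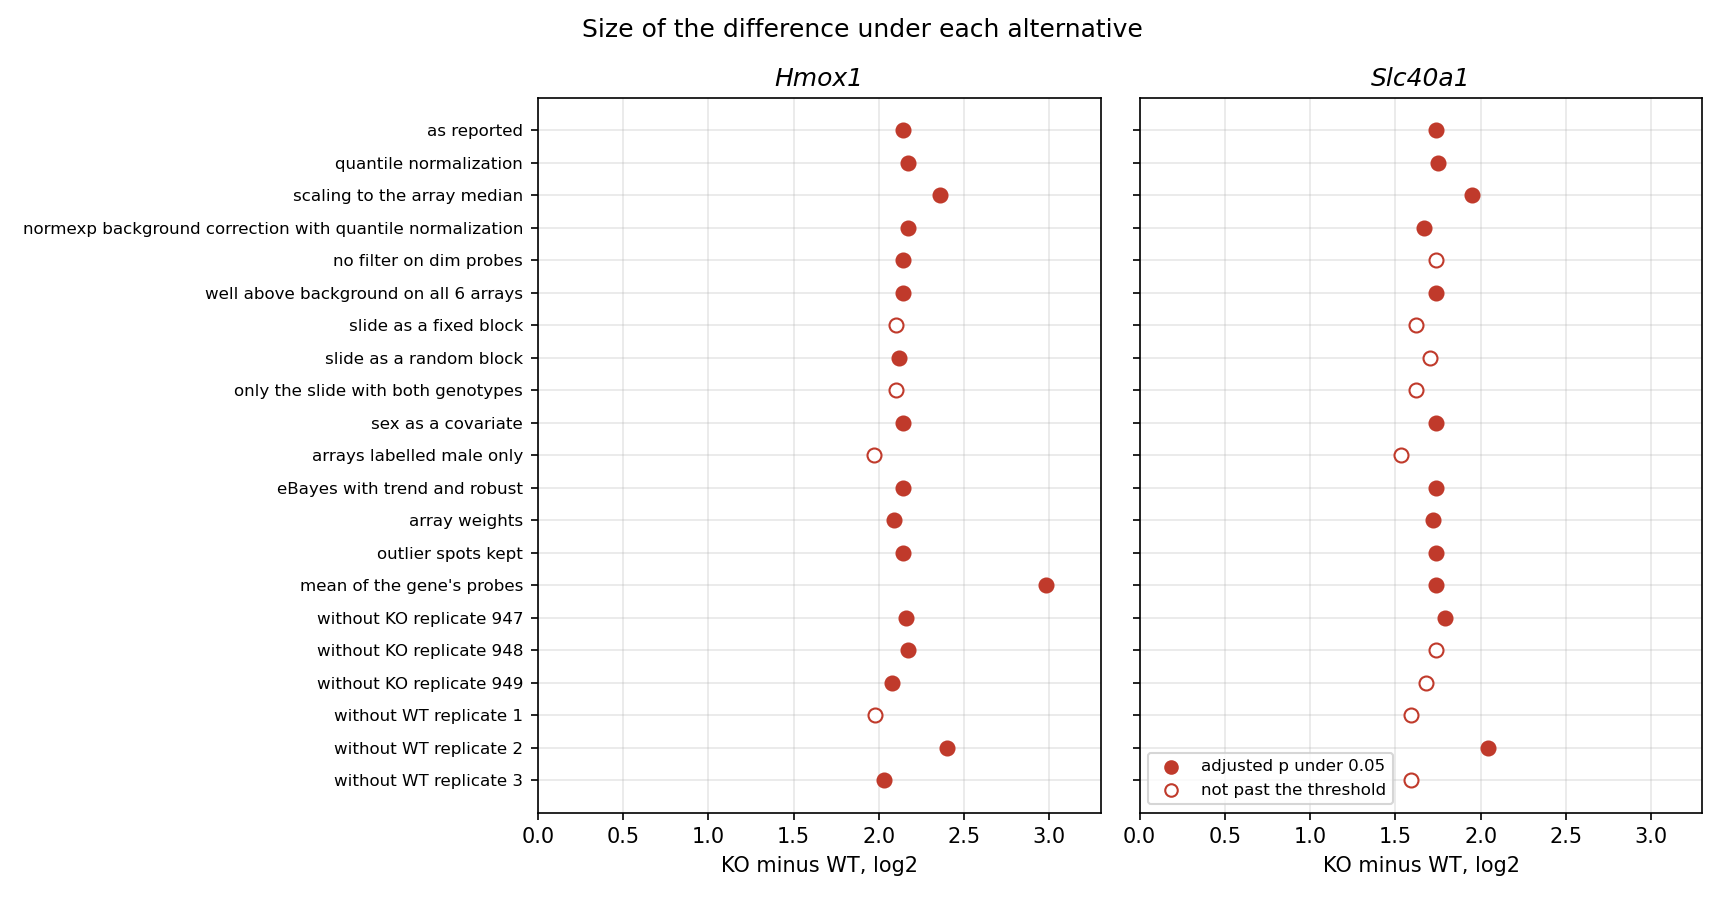
KO minus WT on the log2 scale for Hmox1 (left) and Slc40a1 (right) as reported and under 20 alternatives, filled where the adjusted p was under 0.05. Hmox1 stays between 1.97 and 2.98 and Slc40a1 between 1.53 and 2.04. The value of 2.98 is the mean of both Hmox1 probes.

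The sexes were set side by side. KO 949 and WT 3 lay on different slides, so genotype and slide cannot be told apart in the female pair. Of the male arrays, KO 948 alone lay on the slide of KO 949. In the female pair, KO 949 against WT 3, the differences were 2.47 for Hmox1 and 2.15 for Slc40a1, and between the male means they were 1.97 and 1.53. For the ferritin chains the sign differed, with 0.52 for Fth1 and 0.28 for Ftl1 in the female pair and -0.32 and -0.33 between the male means. The 75th percentile used for scaling was 1992 in KO 949 and 2523 in WT 3. Before scaling Ftl1 was lower in KO 949 (355000) than in WT 3 (372000), so its sign in the female pair depends on the scaling. Fth1 was still higher before scaling, at 533000 in KO 949 and 471000 in WT 3. None of the 8 genes passed a limma test of the interaction of genotype and sex over all genes (adjusted p from 0.743 to 0.928, and the lowest unadjusted value was 0.0726, for Fth1), with 1 female per genotype. Over all genes that test called 4.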

How the data were processed

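Messenger RNA of 3 Bach1 KO and 3 WT mice was measured on 1 one-colour Agilent array per mouse. The scanner files hold spot intensity that the authors extracted by Feature Extraction from Agilent (10.7.3.1 per the file headers, while the submitters' processing notes name 9.1), with the processed signal background-subtracted and not scaled between arrays. The authors' deposited table gives log2 values of 3215 probes, centred per probe, with scaling not given in the sources used here.

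Transcript accessions gave the gene symbols, by RefSeq (GRCm38.p6): 26413 of 55681 matched. The file headers give mm9 as design build. Each spot was taken as log2 processed signal minus the log2 of the 75th percentile of the array. Spots marked as outliers were left out and spots of 1 probe averaged. A probe was tested if 3 or more of the 6 arrays read it well above background, and a gene was read from its probe with the highest mean. No member had a missing value. Genotypes were compared with limma 3.58.1 under R 4.3.3 without covariates. Tests were two-sided and p-values were adjusted by Benjamini-Hochberg across all tested genes, or all tested probes, with a threshold of 0.05. Within-array differences of 6 gene pairs used an exact permutation test. The fit was tested on simulated data. No mouse number occurs in both genotypes, and the labels name separate mice.

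The genes, lists and tests were chosen with earlier results of these data known. Named were the 8 genes, the called and the 2 most changed genes among the other heme and iron genes and among the factors tied to Hmox1 or Bach1, Bach1 and the 5 genes nearest in pattern to Hmox1 and Slc40a1. Csf1r, Adgre1, Hemgn, Nfe2l1, Nr1d1 and the named markers were chosen after their values were seen. Normexp was run on median spot signals.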

Additional observations from a re-analysis of the deposited data

How the results depend on the processing

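The rises of Hmox1 and Slc40a1 kept their direction under all 20 alternatives. Hmox1 passed in 16 and Slc40a1 in 11, with adjusted p from 0.00143 to 0.112 and from 0.00513 to 0.205. Hmox1 was lost at 2.10 with the slide as a fixed block and within 1 slide and at 1.97 on arrays labelled male. Slc40a1 was lost at 1.74 with no filter on dim probes, at 1.62 with the slide as a fixed block and within 1 slide, at 1.70 with the slide as a random block and at 1.53 on male arrays. Without 1 array Hmox1 ran from 1.98 to 2.40 and Slc40a1 from 1.59 to 2.04. The cause of the lost calls was not tested. With fewer KO or WT arrays in a fit, the lone array is assumed to vary like the others.

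The count of genes called, 537, was 332 with quantile normalization, 275 with no filter, 84 with the slide as a fixed block, 255 as a random block, 24 within 1 slide, 305 with sex as a covariate, 182 on male arrays, 810 with trend and robust eBayes, 1747 with array weights and 77 to 900 without 1 array. Scaling to the array median turned 180 higher and 357 lower (33.5% higher) into 384 and 230 (62.5%). The count of probes called, 392, was 225, 95, 73, 211, 0, 231, 112, 812 and 1509 under the same settings in that order and 21 to 480 without 1 array. Where limma called 0 probes, within 1 slide, 5128 had an unadjusted p under 0.05. Hmox1 over Slc40a1 within an array shifted by 0.50 with normexp.

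Reversals touched only genes with no call. Fth1 was at 0.03 with quantile normalization, 0.17 with scaling to the array median, 0.03 without KO 948 and 0.11 without WT 1 (-0.22 to 0.11 without 1 array), and Ftl1 was at 0.09 with scaling to the median, for gene and probe alike. Blvra was at -0.08 on male arrays and -0.09 without WT 3 (-0.09 to 0.18 without 1 array, first probe the same). Hmox2 was at -0.03 with array weights (both probes -0.02) and -0.06 without KO 947 (-0.06 to 0.22 without 1 array, second probe -0.09 to 0.18), and its second probe at -0.05 with normexp. No paired analysis was possible because the labels share no replicate numbers between genotypes. Precision is limited by having 3 arrays per genotype.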
